A study of Sorghum bicolor with 8 samples.

Results

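The core enzymes of C4 photosynthesis were followed through 3 types of sorghum callus and the leaves regenerated from one of them. The set held 9 of the 34129 genes in the deposited files, listed by identifier for their known enzyme roles. No measured value enters that rule, though the set was proposed after earlier results of these data were known. All 9 passed the filter on low values, a minimum of 1 FPKM in 2 or more of the 8 libraries, which left 23166 genes for testing. FPKM counts fragments relative to transcript length and to the library's total. As a level per length, it can be set side by side between genes.

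All libraries came from wild-type Sorghum bicolor, line Hiro-1, with 2 replicates in each of 4 groups. Callus I, Callus II and Callus III, unorganised tissue grown in culture, were cut from the same kind of explant, immature embryos of 1 to 2 mm taken 13 to 15 days after flowering. They were induced for 3 weeks in the dark at 25 °C on callus induction medium and subcultured for 20 days on fresh medium. Leaf was the regenerated leaf of Callus II, grown after a move to differentiation medium, with 16 h of light (2000 lx) and 8 h of dark a day. Comparisons with Leaf join tissue, light and medium, which cannot be told apart. The labels say nothing of light after induction for the callus libraries, and nothing of how many plants or cultures made up a library.

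In C4 leaves, CO2 is first hydrated to bicarbonate by carbonic anhydrase and fixed onto phosphoenolpyruvate by PEP carboxylase in mesophyll cells. The resulting acid is reduced to malate by NADP-malate dehydrogenase and passed to bundle sheath cells. There NADP-malic enzyme releases CO2 next to Rubisco, and pyruvate returns to the mesophyll, where pyruvate, orthophosphate dikinase makes phosphoenolpyruvate again. The C4 forms arose from relatives that serve ordinary metabolism in non-green tissue, so transcripts of such families are also known outside leaves.

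The genes are named here by enzyme, with letters for neighbouring copies in their order along the chromosome. Carbonic anhydrase was represented by CA-a (Sobic.003G234200.v3.2, chromosome 3, 57297987 to 57310502), CA-b (Sobic.003G234400.v3.2, 57311562 to 57316959) and CA-c (Sobic.003G234500.v3.2, 57318984 to 57321883). PEPC, the C4 PEP carboxylase, was Sobic.010G160700.v3.2 (chromosome 10, 47244445 to 47253575). The NADP-malate dehydrogenases were MDH-a (Sobic.007G166200.v3.2, chromosome 7, 60144110 to 60147894) and MDH-b (Sobic.007G166300.v3.2, 60149510 to 60153216). NADP-ME was Sobic.003G036200.v3.2 (chromosome 3, 3317184 to 3322427), and PPDK, the dikinase, was Sobic.009G132900.v3.2 (chromosome 9, 48725978 to 48738853). RbcS, the small subunit of Rubisco, was Sobic.005G042000.v3.2 (chromosome 5, 3876057 to 3877378).

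Some of these loci lay close together. CA-a and CA-b were 1059 bp apart, CA-b and CA-c 2024 bp, and the pair of MDH genes 1615 bp. CA-b alone overlapped another locus, by 420 bp, and that partner was at most 0.32 FPKM in any library. The genome build of these positions is not given in the sources used here. By position in RefSeq NCBIv3, which may not be that build, 1 locus annotated as a transcribed pseudogene covered all of CA-c and 82.7% of CA-b, so whether they are separate working genes is uncertain. How the authors assigned reads that match several copies is not given in the sources used here, so the split of reads between copies is uncertain.

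Leaf carried all 9 transcripts, and 8 of them were higher there than in every callus library. The exception was CA-c, which was highest in Callus I. How many of all genes tested were higher in Leaf than in every callus library was not counted. The 8 of 9 thus only describes these genes. Together the 9 genes held 1.30% and 1.29% of the summed FPKM in the Leaf libraries. Callus I gave 0.050015% and 0.0340%, Callus II 0.0217% and 0.0181%, and Callus III 0.0179% and 0.0163%. Fewer cells of a type and less RNA per cell cannot be told apart in such bulk samples.

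**Figure D1:**
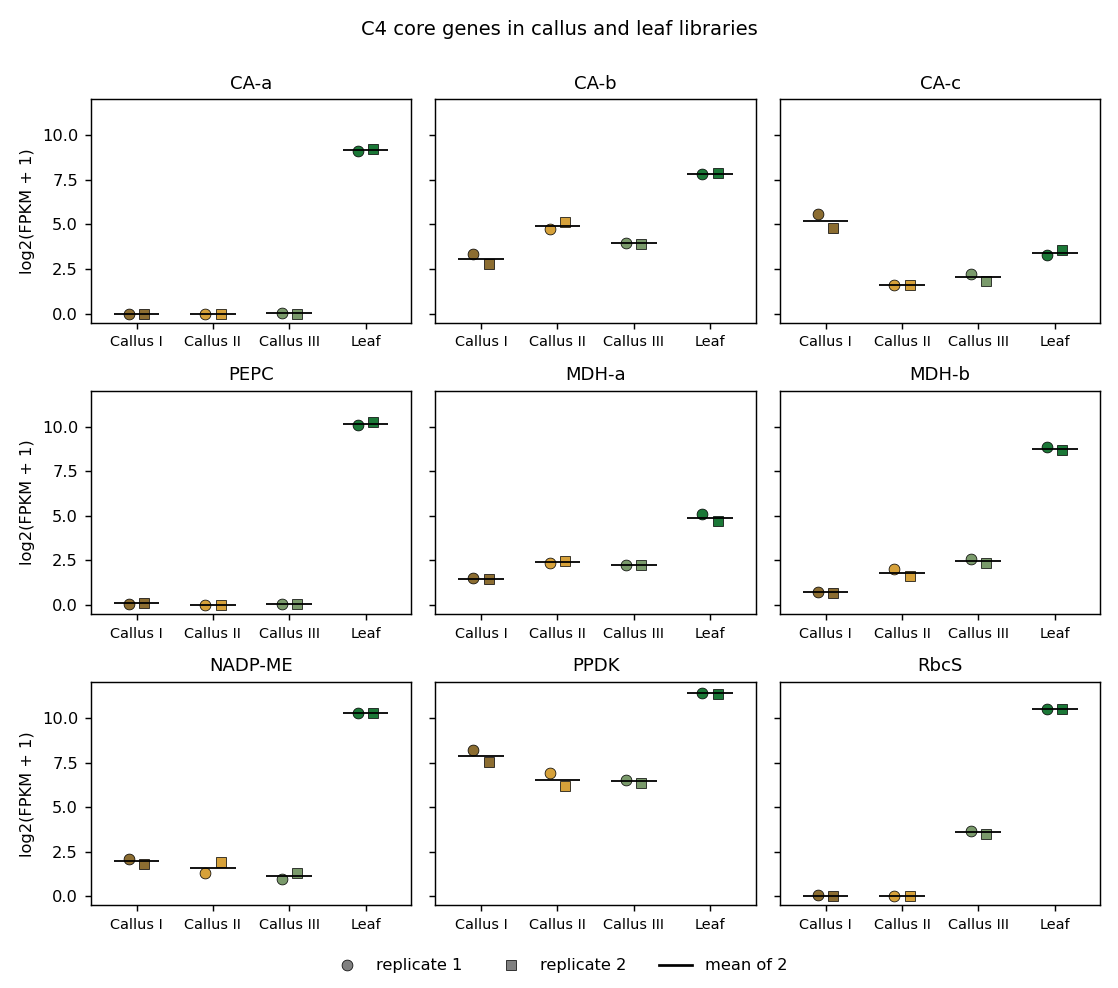
Level of each of the 9 genes, as log2(FPKM + 1), in the 2 libraries of each callus type and of Leaf (points are libraries, lines the means of 2). CA-a and PEPC are near 0 in all callus libraries and RbcS in Callus I and II, PPDK is high everywhere, and CA-c alone is highest in Callus I.

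Differences were tested with limma on log2(FPKM + 1) across all 23166 genes, with calls made where the Benjamini-Hochberg adjusted p was below 0.05. Against Callus I, 8 of the 9 genes rose in Leaf and 1 fell. Of all genes tested, 70.8% were called in that comparison, 38.8% higher and 32.1% lower. All 9 rose against Callus II, where 71.4% of all genes were called, 32.4% higher and 39.0% lower. All 9 also rose against Callus III, where 64.1% were called, 38.5% higher and 25.6% lower. The median log2 difference of the 9 genes was 8.05, 6.95 and 6.29 in these comparisons, against 0.11, -0.11 and 0.13 over all genes tested. The 3 comparisons share the Leaf libraries and are not separate results. CA-a and PEPC passed the filter only through Leaf, so these counts include genes admitted by their Leaf level.

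The median-ratio scaling of libraries moved the median of all genes by 0.17 for Leaf minus Callus II, by -0.11 for Leaf minus Callus III, by -0.18 for Callus II minus Callus I and by 0.33 for Callus III minus Callus II. Differences between callus types that are not much larger than these shifts depend on the scaling.

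The 3 genes listed as carbonic anhydrase, the enzyme that supplies bicarbonate to PEP carboxylase in C4 leaves, each had a pattern of their own. Which of them serve that role was not tested. CA-a was the copy found almost only in Leaf, at 553 and 587 FPKM there. It was listed at 0 in 5 of the 6 callus libraries and at 0.0216 FPKM in Callus III replicate 1. No fold is given against Callus I or Callus II, both listed at 0, where limma gave adjusted p = 1.03e-07 in each. Against Callus III the log2 difference was 9.14 ± 0.13 (SE, n = 2 per group; limma adjusted p = 7.49e-08). This size is set by the added 1 FPKM, and with 0.1 FPKM it was 12.34 ± 0.24. CA-a passed the filter only through its Leaf libraries, and its SE draws on callus groups at or near 0. Its tests of Leaf against callus are thus no separate support for the difference.

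CA-b was expressed in every library. Callus I gave 8.95 and 5.89 FPKM, Callus II 25.9 and 33.7, Callus III 14.4 and 14.2, and Leaf 222 and 236. The order of the means was thus Leaf, Callus II, Callus III, Callus I, and no group overlapped its neighbour in that order. Leaf exceeded Callus II by 2.91 ± 0.20 on the log2 scale (SE; limma adjusted p = 1.53e-05), a 7.68-fold ratio of mean FPKM. Callus II exceeded Callus I by 1.88 ± 0.20 (limma adjusted p = 1.76e-04), and Callus III exceeded Callus I by 0.88 ± 0.20 (limma adjusted p = 0.00683). Callus III minus Callus II was -0.9997 ± 0.20 (limma adjusted p = 0.00473). With median-ratio scaling that last difference was -0.56 and was no longer called (adjusted p = 0.0591).

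CA-c had its highest level in Callus I. Callus I had 46.4 and 27.3 FPKM of it, Callus II 2.06 and 1.99, Callus III 3.69 and 2.62, and Leaf 8.65 and 10.6. Both Callus I libraries lay above all others, and both Leaf libraries lay between them and the remaining callus libraries. The log2 difference of Callus II minus Callus I was -3.60 ± 0.26 (SE; limma adjusted p = 3.85e-05), and for Callus III minus Callus I it reached -3.15 ± 0.26 (limma adjusted p = 6.67e-05). Leaf minus Callus I was -1.79 ± 0.26 (limma adjusted p = 7.19e-04), while Leaf was higher than Callus II by 1.81 ± 0.26 (limma adjusted p = 6.96e-04) and than Callus III by 1.36 ± 0.26 (limma adjusted p = 0.00338). Callus III and Callus II were not distinguished (0.45 ± 0.26, limma adjusted p = 0.188).

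The balance between the neighbouring loci CA-b and CA-c varied between tissues. They may be parts of 1 locus, as the RefSeq annotation has them. The ratio of CA-b to CA-c in FPKM was 0.193 and 0.216 (Callus I), 12.6 and 16.9 (Callus II), 3.89 and 5.42 (Callus III) and 25.7 and 22.2 (Leaf). CA-c was the more abundant of the pair in Callus I only, among these libraries. In Leaf, CA-a was 2.49 times CA-b in both libraries.

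PEPC, which makes the first fixation of carbon, was the most clear-cut case beside CA-a. It reached 1076 and 1208 FPKM in Leaf, ranking 32 and 29 among the 26617 and 26787 genes above 0. Callus I had 0.0562 and 0.0960 FPKM and Callus III 0.0511 and 0.0213, and both Callus II libraries listed it at 0. The log2 difference was 10.05 ± 0.13 for Leaf minus Callus I (SE; limma adjusted p = 1.03e-07) and 10.11 ± 0.13 for Leaf minus Callus III (limma adjusted p = 7.49e-08). These sizes are set by the added 1 FPKM, and with 0.1 FPKM they were 12.67 and 13.04. Against Callus II, listed at 0, the limma adjusted p was 1.03e-07. PEPC, like CA-a, passed the filter only through its Leaf libraries, so its tests of Leaf against callus are no separate support for the difference. No difference between callus types was called, at levels under 0.1 FPKM, except that Callus II fell below Callus I with a pseudocount of 0.1 FPKM (adjusted p = 0.0331) and with only the 2 groups in the fit (adjusted p = 0.0446).

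The pair of NADP-malate dehydrogenase genes, which make malate in the chloroplast, shared a direction but not a size of change. Sorghum is known to carry these genes side by side, one strongly expressed in green leaf and one at a low, steady level. Leaf had 455 and 411 FPKM of MDH-b, Callus I 0.659 and 0.616, Callus II 2.98 and 2.08, and Callus III 4.95 and 4.16. Its groups did not overlap, and the means followed the order Leaf, Callus III, Callus II, Callus I. In MDH-b, Leaf exceeded Callus I by 8.05 ± 0.16 on the log2 scale (SE; limma adjusted p = 1.45e-07), Callus II by 6.95 ± 0.16 (limma adjusted p = 2.50e-07) and Callus III by 6.29 ± 0.16 (limma adjusted p = 2.68e-07). With a pseudocount of 0.1 FPKM the first of these was 9.20.

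Among callus types, Callus III exceeded Callus I in MDH-b by 1.76 ± 0.16 (limma adjusted p = 1.03e-04) and Callus II exceeded Callus I by 1.10 ± 0.16 (limma adjusted p = 9.28e-04). These low values depend on the pseudocount, and with 0.1 FPKM the differences were 2.65 and 1.81. Callus III exceeded Callus II by 0.66 ± 0.16 (limma adjusted p = 0.0117), or 1.01 with median-ratio scaling (adjusted p = 0.00390). That call was lost without Callus II replicate 2 (adjusted p = 0.0618), without Callus III replicate 1 (0.0627) and with only the 2 groups in the fit (0.0726).

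Leaf had 32.7 and 25.3 FPKM of MDH-a, Callus I 1.83 and 1.71, Callus II 4.05 and 4.56, and Callus III 3.75 and 3.73. MDH-a was the lower copy in Leaf, but its level was not steady across these libraries. Leaf exceeded Callus I by 3.43 ± 0.16 on the log2 scale (SE; limma adjusted p = 2.33e-06), Callus II by 2.49 ± 0.16 (limma adjusted p = 1.30e-05) and Callus III by 2.65 ± 0.16 (limma adjusted p = 1.11e-05). Callus I was the lowest group, below Callus II by 0.94 ± 0.16 (limma adjusted p = 0.00192) and below Callus III by 0.78 ± 0.16 (limma adjusted p = 0.00514). Callus III minus Callus II was -0.16 ± 0.16 (limma adjusted p = 0.433), and with either scaling its sign turned.

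MDH-b made up the greater part of the pair in Leaf and the smaller part in Callus I and II. The ratio of MDH-b to MDH-a came to 13.9 and 16.2 (Leaf), 0.360 and 0.361 (Callus I), 0.735 and 0.457 (Callus II) and 1.32 and 1.12 (Callus III). Both Leaf libraries lay above all callus libraries. On the log2 scale the Leaf mean exceeded the callus mean by 4.57 for this ratio and by 3.32 for CA-b over CA-c (exact permutation test of 2 against 6 libraries, 2-sided p = 0.0357 and 0.0714, adjusted over the 2 ratios 0.0714 for each). Neither passed the threshold after adjustment, and the test takes the 6 callus libraries as alike although they are 3 types. The smallest p this test can give is 0.0357, which the MDH ratio reached. After adjustment that ratio could pass only if both ratios reached this value, so not passing decides nothing about the MDH ratio.

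**Figure D2:**
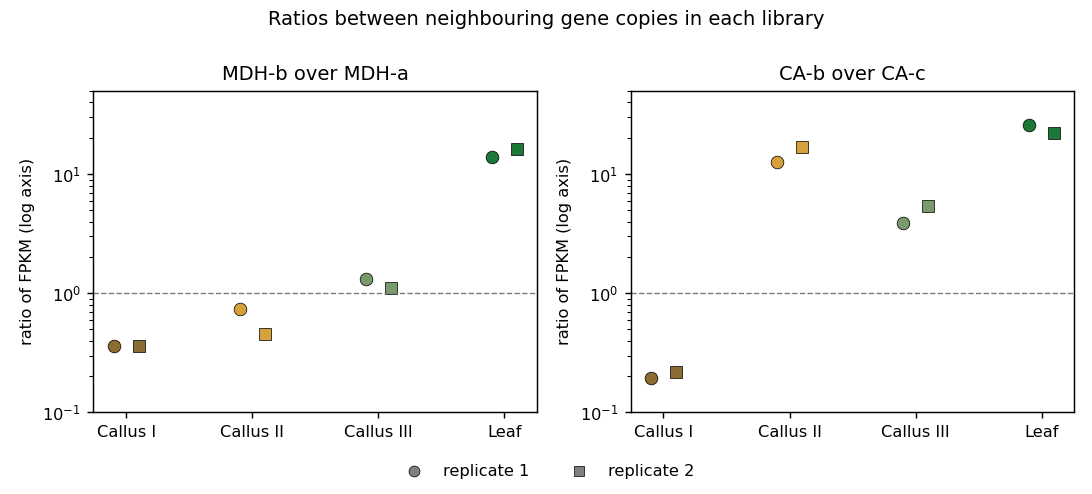
Ratio of FPKM between neighbouring copies, MDH-b over MDH-a and CA-b over CA-c, in each library (log axis, points are libraries, dashed line marks equal levels). MDH-b over MDH-a is 13.9 and 16.2 in Leaf against at most 1.32 in callus, and CA-b over CA-c is below 1 in Callus I alone.

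NADP-ME, which releases CO2 in the bundle sheath, went from a few FPKM in callus to one of the highest levels in Leaf. Leaf had 1255 and 1232 FPKM, Callus I 3.33 and 2.54, Callus II 1.45 and 2.74, and Callus III 0.954 and 1.48. As a ratio of mean FPKM, the step was 423 for Leaf over Callus I, 594 over Callus II and 1021 over Callus III. On the log2(FPKM + 1) scale the differences were 8.31 ± 0.23 (SE; limma adjusted p = 3.23e-07), 8.68 ± 0.23 (limma adjusted p = 3.35e-07) and 9.14 ± 0.23 (limma adjusted p = 2.47e-07). At these low callus levels the added 1 FPKM makes them smaller, and with 0.1 FPKM they were 8.69, 9.21 and 9.91.

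The callus levels of NADP-ME were close to one another. At such low levels the sizes of their differences depend on the pseudocount. Callus III was lower than Callus I, at a log2 difference of -0.83 ± 0.23 (limma adjusted p = 0.0173), and this call was lost without Callus I replicate 1 (adjusted p = 0.0894) or without Callus III replicate 1 (0.0981). Callus II overlapped both neighbours. Its difference from Callus I was -0.37 ± 0.23 (limma adjusted p = 0.194), which became a call with median-ratio scaling (-0.59, adjusted p = 0.0434) and without Callus II replicate 2 (-0.68, adjusted p = 0.0353), but was -0.068 without Callus II replicate 1 (adjusted p = 0.825). Callus III minus Callus II was -0.46 ± 0.23 (limma adjusted p = 0.129), called without Callus II replicate 1 (-0.76, adjusted p = 0.0302). It was -0.15 without Callus II replicate 2 (adjusted p = 0.596) and -0.18 with median-ratio scaling (adjusted p = 0.522).

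PPDK, which regenerates phosphoenolpyruvate, was the one gene of the set that was abundant in callus as well. Callus I gave 294 and 185 FPKM, Callus II 118 and 71.5, Callus III 92.5 and 80.6, and Leaf 2713 and 2632. Among all genes it ranked 5 and 8 in the Leaf libraries. Callus ranks were lower, namely 279 and 502 (Callus I), 854 and 1572 (Callus II) and 947 and 1161 (Callus III). In maize, 1 gene gives both a chloroplast form for C4 photosynthesis and a cytosolic form through different promoters. The deposited values are per gene and hold no split between such forms.

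Leaf exceeded Callus I in PPDK by 3.51 ± 0.29 on the log2 scale (SE; limma adjusted p = 3.57e-05), Callus II by 4.85 ± 0.29 (limma adjusted p = 9.27e-06) and Callus III by 4.94 ± 0.29 (limma adjusted p = 9.48e-06). Ratios of mean FPKM were 11.2, 28.2 and 30.9. Callus I was the highest callus type. Callus II was lower, at a log2 difference of -1.33 ± 0.29 (limma adjusted p = 0.00575), a call lost with only the 2 groups in the fit (adjusted p = 0.0618), and Callus III was lower, with -1.42 ± 0.29 (limma adjusted p = 0.00474). Callus II and Callus III overlapped and were not distinguished (-0.09 ± 0.29, limma adjusted p = 0.830, with a sign that depended on the scaling and on single libraries).

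RbcS, the nuclear-encoded part of Rubisco, was near 0 in Callus I and II but present in Callus III. Callus III had 11.6 and 10.5 FPKM, Callus I 0.0441 and 0, and Leaf 1425 and 1467, while both Callus II libraries listed it at 0. Both Callus III libraries thus lay above all Callus I and Callus II libraries and far below Leaf. Callus III exceeded Callus I by 3.55 ± 0.11 on the log2(FPKM + 1) scale (SE; limma adjusted p = 1.44e-06), or by 6.53 with a pseudocount of 0.1 FPKM. Against Callus II, listed at 0, the limma adjusted p was 2.35e-06. Leaf exceeded Callus III by 6.91 ± 0.11 (limma adjusted p = 8.44e-08), a 131-fold ratio of mean FPKM, and Callus I by 10.47 ± 0.11 (limma adjusted p = 9.70e-08), or by 13.56 with a pseudocount of 0.1 FPKM.

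PEPC and CA-a, the other genes near 0 in Callus I and Callus II, did not share this rise. Both stayed under 0.1 FPKM in Callus III, and neither was called between Callus III and either other callus type (limma adjusted p from 0.760 to 0.949).

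Between callus types the 9 genes moved in both directions. In Callus II minus Callus I, MDH-a, MDH-b and CA-b rose and PPDK and CA-c fell, and 4 genes were not called. Over all genes tested, 64.5% were called, 39.1% higher and 25.4% lower in Callus II. In Callus III minus Callus I, 4 genes rose (MDH-a, MDH-b, CA-b and RbcS) and 3 fell (PPDK, CA-c and NADP-ME), against 60.1% of all genes called, 26.9% higher and 33.2% lower. In Callus III minus Callus II, MDH-b and RbcS rose and CA-b fell, against 57.3% of all genes called, 15.1% higher and 42.3% lower. With 5, 7 and 3 of the 9 genes called, these counts are no result about the set. Comparisons with a shared callus type use the same libraries.

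**Figure D3:**
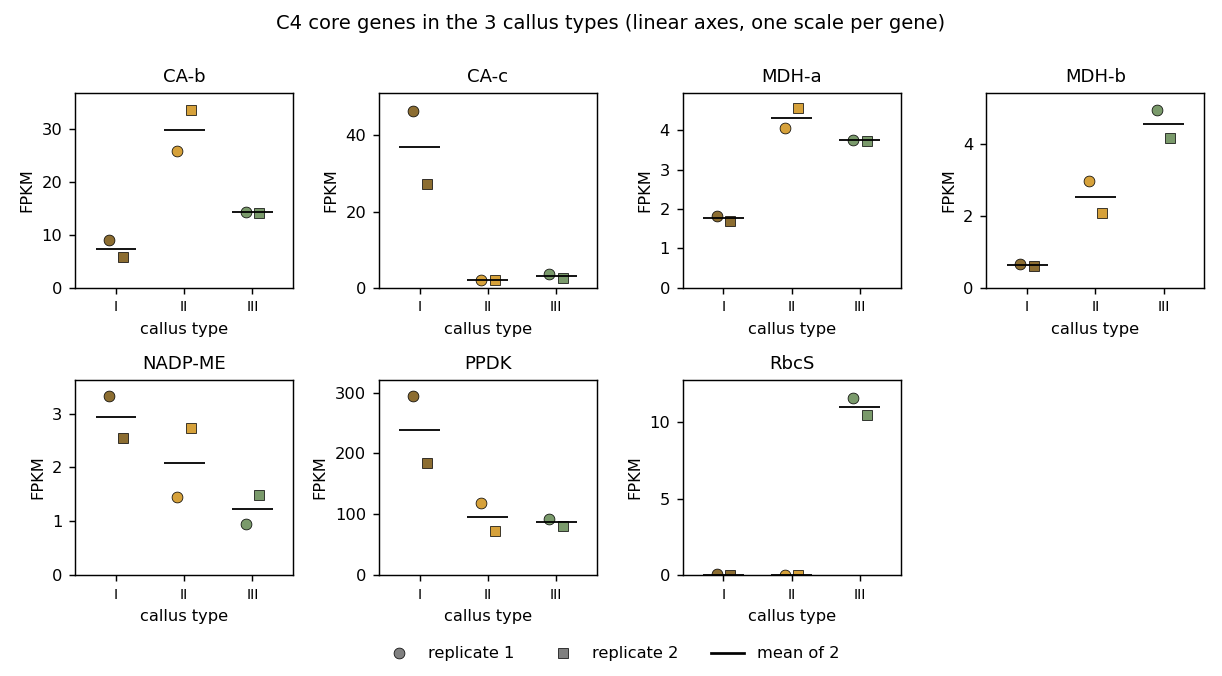
FPKM of the 7 genes detected above 0.1 FPKM in callus, in the 2 libraries of Callus I, II and III (linear axes from 0, a scale of its own per gene, lines are means of 2). PPDK and CA-c are highest in Callus I, CA-b in Callus II, and MDH-b and RbcS in Callus III.

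**Figure D4:**
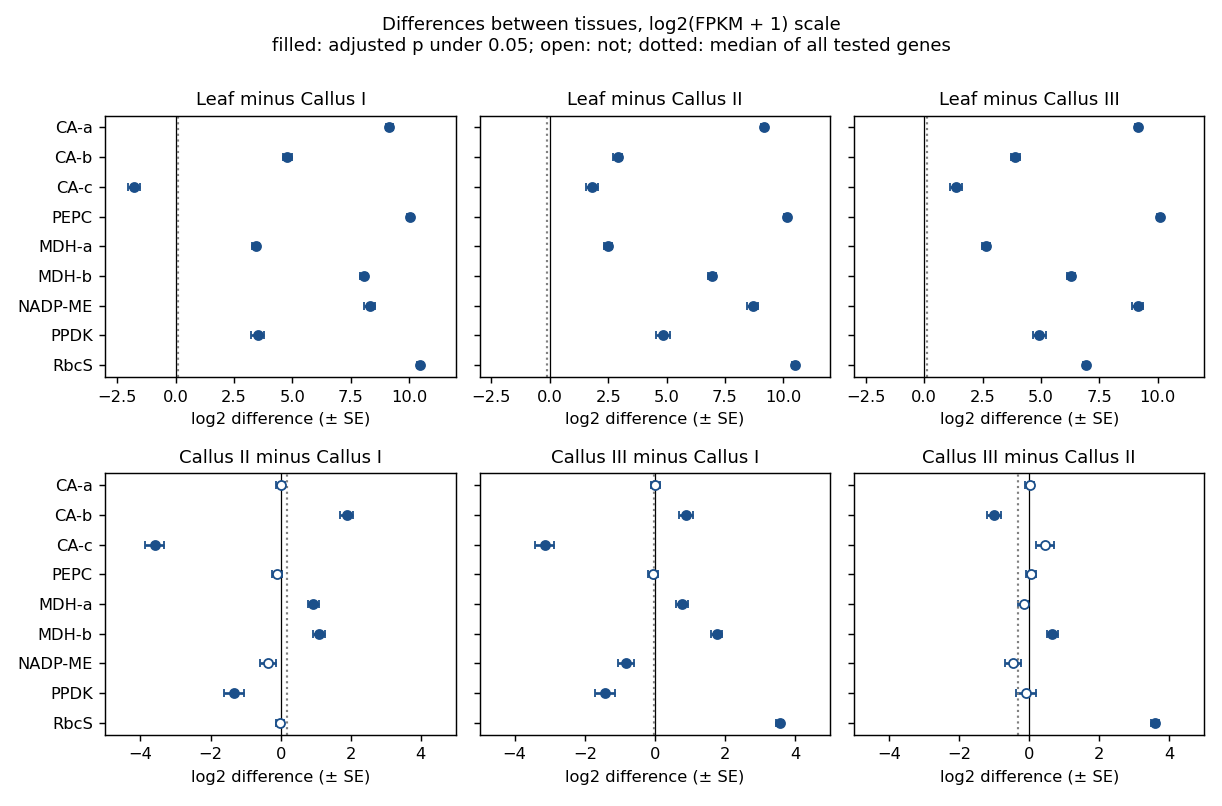
Log2 difference of each gene on the log2(FPKM + 1) scale with its SE in the 6 comparisons (filled circles have an adjusted p under 0.05, the dotted line is the median of all genes tested). In the Leaf panels all points but CA-c against Callus I lie to the right, while the callus panels hold both signs; values for genes at or near 0 in a group depend on the pseudocount.

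The make-up of the set also changed between tissues. Of the summed FPKM of the 9 genes, PPDK held 82.8% and 82.9% (Callus I), 76.4% and 61.4% (Callus II), 70.1% and 68.7% (Callus III) and 35.0% and 33.7% (Leaf). CA-c came next in Callus I, with 13.0% and 12.2%. CA-b was next in the other callus types, with 16.8% and 28.9% (Callus II) and 10.9% and 12.1% (Callus III). RbcS held 8.78% and 8.93% in Callus III. In Leaf the sum was spread over several enzymes, with RbcS at 18.4% and 18.8%, NADP-ME at 16.2% and 15.8%, and PEPC at 13.9% and 15.5%.

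**Figure D5:**
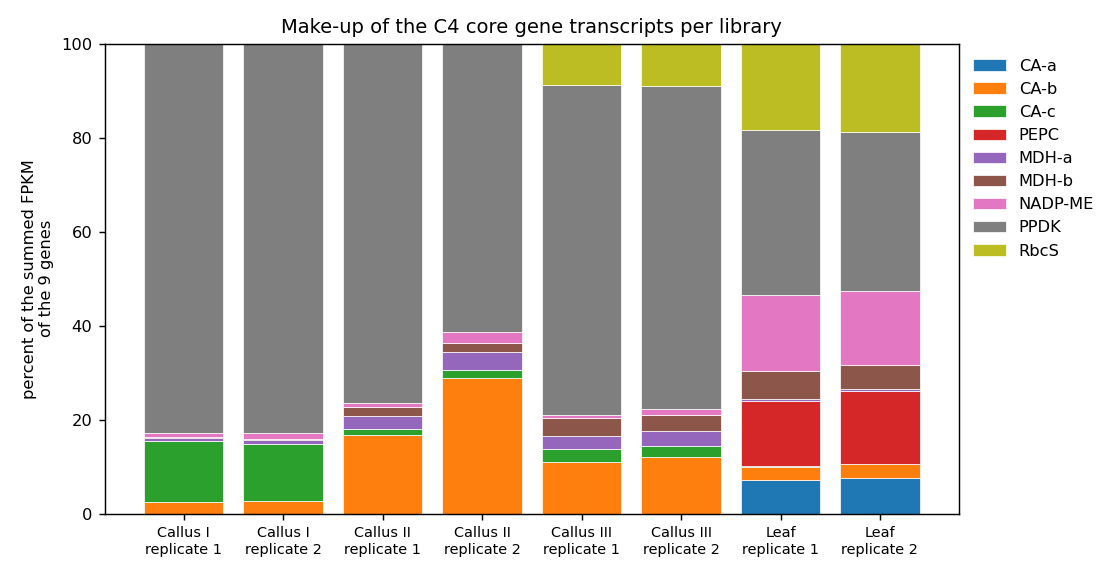
Percent of the summed FPKM of the 9 genes that each gene held, as stacked bars per library. PPDK holds 61.4% to 82.9% in the callus libraries and 35.0% and 33.7% in Leaf, where RbcS, NADP-ME, PEPC and CA-a take most of the rest.

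In Leaf, PPDK, PEPC and NADP-ME lay within a few-fold of one another. PPDK over PEPC was 2.52 and 2.18, PPDK over NADP-ME 2.16 and 2.14, and PEPC over NADP-ME 0.858 and 0.980. In callus PPDK over NADP-ME ran from 26.1 to 96.9. By rank in the Leaf libraries, RbcS was at 19 and 21, NADP-ME at 25 and 28, CA-a at 82 and 78, MDH-b at 109 and 132, and CA-b at 325 and 286. MDH-a (3947 and 4952) and CA-c (10589 and 9500) were far lower.

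The nearest tested loci on each side of the 9 genes came to 12 genes. Of these, 4 were called higher and 7 lower in Leaf than in Callus I, 4 higher and 5 lower than in Callus II, and 3 higher and 2 lower than in Callus III, beside 70.8%, 71.4% and 64.1% of all genes called. The tested locus after RbcS, 38061 bp away, was called higher in Leaf in all 3 comparisons, at 29.2 and 39.1 FPKM there. It was listed at 0 in 5 of the 6 callus libraries and at 16.2 FPKM in Callus I replicate 1. Its call against Callus I was near the threshold (3.07 ± 1.12, SE, limma adjusted p = 0.0429). The locus before the MDH pair ranged from 20.8 to 47.8 FPKM over the 8 libraries and was higher in Leaf than in Callus I, II and III by 0.66, 0.37 and 1.0003 on the log2 scale (limma adjusted p = 0.00218, 0.0290 and 3.52e-04). The locus after it ranged from 10.2 to 14.7 FPKM and was not called in these comparisons (limma adjusted p from 0.0650 to 0.727). Before CA-a lay a locus at 139 and 159 FPKM in Callus I and no higher than 5.91 elsewhere. The locus after CA-c was also highest in Callus I, at 1.76 and 2.25 FPKM, with at most 0.979 elsewhere. The outer neighbours of the CA loci were thus both highest in Callus I, as was CA-c, while CA-a and CA-b were not. The outer neighbour on the CA-a side lay 29485 bp from CA-c. Such neighbours were not particular to CA-c, and how many of all genes tested were highest in Callus I was not counted. In Callus I the locus before PEPC was also highest, at 5.42 and 10.5 FPKM, and the locus after PEPC, at 16.2 and 23.8. So was the locus after PPDK, at 10.4 and 9.27 FPKM.

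Across the 8 libraries, the genes with the most similar values were found by Euclidean distance on log2(FPKM + 1). The nearest gene outside the set lay at 0.0362 for CA-a and at 3.28 for PPDK, and the other 7 genes fell between these distances. Nearest to CA-a was Sobic.006G060800.v3.2, listed at 0 in all 6 callus libraries and at 557 and 594 FPKM in Leaf. The partner of RbcS, at a distance of 1.40, was Sobic.006G073500.v3.2. Callus III gave 21.6 and 20.8 FPKM of it, Callus II 0.250 and 0.276, and Leaf 1551 and 1893, and both Callus I libraries listed it at 0. For CA-c the nearest was Sobic.006G038800.v3.2 (distance 0.567), for which Callus I gave 37.7 and 26.0 FPKM, Callus II 2.06 and 1.22, Callus III 4.24 and 2.40, and Leaf 9.59 and 10.5. The files do not pair these identifiers with names.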

How the data were processed

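Gene-level FPKM values were deposited by the authors, 1 file per library, as the file headers name them. Per the submitters' processing notes, Cuffdiff, TopHat2 2.0 and Trimmomatic were used, in roles the notes do not state. Build, tool settings and use of strand: not given in the sources used here. Read totals are unknown, so depth is unknown. The sum of FPKM was 595109 to 737291 per library. Files were joined by identifier, and 1 was added to locus starts (884 then equalled a start in the RefSeq table of NCBIv3, against 345 as deposited). That table matched 0 of the identifiers and holds no gene descriptions, so the lists of other pathway genes and of tissue markers had 0 members and the tissue labels were not checked by them. Sequences were not used here.

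Genes reaching 1 FPKM in 2 or more libraries were fitted as log2(FPKM + 1) by limma 3.58.1 under R 4.3.3. Each group had its own mean, the variance followed a trend, and moderated tests were 2-sided. All limma p-values were Benjamini-Hochberg adjusted within a comparison over the genes tested, 23166 in the main fit. The fit was tested on simulated data. A permutation test of 2 against 2 libraries cannot go below p = 0.333, so calls rest on a model. It combines each gene's own spread over the 4 groups with the spread shared across genes (2.83 prior degrees of freedom). The labels do not say whether replicates came from separate cultures, so the spread may be technical. Members, listed by enzyme role, and lists and tests were chosen with earlier results of these data known. The 9 members are all named. Of the genes with the most similar values, the 3 nearest to each member were taken, and identifiers are printed for 3 members. The alternatives were other pseudocounts, filters, scalings and variance models, a replicate block, and leaving out each library.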

Additional observations from a re-analysis of the deposited data

How the results depend on the processing

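The number of C4 core genes called in each of the 6 comparisons stayed within 1.5 times its reported value in all 72 alternative counts. Many of these counts come from the same fit. Of 648 alternative values for single genes, 630 kept their direction and their side of the threshold, 7 lost a call, 5 gained one and 6 changed sign. The sign changes all concern Callus III minus Callus II and genes not called there. PPDK became 0.36 with median-ratio scaling and 0.21 with equal sums without the 100 highest genes and, leaving out 1 library each, ran from -0.45 without Callus II replicate 2 to 0.27 without Callus II replicate 1, with 0.0083 without Callus III replicate 2. MDH-a became 0.20 with median-ratio scaling and 0.082 with equal sums. The cause was not tested. A replicate block left the counts at 9, 9 and 9 for Leaf against Callus I, II and III, at 5 and 7 for Callus II and III against Callus I, and at 3 for Callus III against Callus II, and changed no call. Same-numbered libraries did not deviate together (correlations from -0.10 to 0.02), so the values show no pairing by number. Such correlations cannot establish that same-numbered libraries were handled apart. "No filter" kept genes above 0 in any library. With unknown depth and 2 libraries per group, differences under 0.1 FPKM cannot be judged.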
